A study of Mus musculus with 4 samples.

Results

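The glutathione S-transferase mu genes Gstm1 to Gstm7 and the neighbouring noncoding gene 4933431E20Rik were followed through RNA-seq of mouse frontal cortex in which reads had been separated by parental allele. The members were the rows of both RNA tables with these 8 names, 8 of 46320 gene identifiers, and all 8 were found. The members were selected on their Spretus and C57 read counts, whose shares pointed in opposite directions along the locus. Those shares are therefore given as a description with exact intervals and without a test. The mice were female F1 animals of C57BL6J and Spretus parents, 14 weeks old, and carried a mutation of Xist, the noncoding RNA that silences an X chromosome, on the maternal allele. The tissue was prefrontal cortex, pooled from 2 individuals of separate litters, and gave 2 RNA-seq libraries of the same genotype and 2 MethylC-seq libraries, in which bisulfite treatment reads the methylation of single cytosines. The comparison is between the Spretus and the C57 allele within each library. The strain label is taken to name the mother first, which makes C57 the maternal allele. Only 1 direction of cross was sampled, so an effect of strain and an effect of the transmitting parent cannot be told apart.

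Mu class glutathione S-transferases are cytosolic enzymes that join glutathione to reactive electrophiles, which makes these compounds more soluble and easier to export. They act as dimers, and their genes stand side by side in mammals, products of repeated gene duplication. In the brain, mu class enzymes are known from astrocytes and other glia as well as from some neurons. Several glutathione genes are known targets of Nrf2, a transcription factor that binds antioxidant response elements.

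The 8 genes lay within 156 kb on chromosome 3 (mm10, chr3:107888850-108044894). Their order was 4933431E20Rik, Gstm5, Gstm7, Gstm6, Gstm3, Gstm2, Gstm1 and Gstm4. In RefSeq (GRCm38.p6, the assembly behind mm10) Gstm5 is transcribed from the plus strand and the other 7 from the minus strand. Gstm5 and 4933431E20Rik therefore run in opposite directions from starts that lie close together, and their gene spans shared 393 bp in the authors' tables and 360 bp in RefSeq. No other neighbours among the 8 overlapped, with gaps of 7029 to 27647 bp between them. Another 10 listed genes fell in or overlapped the span, and together they had 2 allele-assigned reads.

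The windows of 250 bases before the RefSeq starts are shown for the 5 genes whose allelic shares could be measured in both libraries. RefSeq has 2 windows each for Gstm7, Gstm1 and Gstm4 and 3 for Gstm6. For these, the window whose start lies nearest the gene start in the authors' tables was used. They are C57BL/6J reference sequence from RefSeq on each gene's own strand, and Spretus bases were not used here. Capitals mark matches to the GC box GGGCGG, the TATA box TATAAA or the antioxidant response element core TGACNNNGC, searched on both strands.
4933431E20Rik, chr3:107896214-107896463: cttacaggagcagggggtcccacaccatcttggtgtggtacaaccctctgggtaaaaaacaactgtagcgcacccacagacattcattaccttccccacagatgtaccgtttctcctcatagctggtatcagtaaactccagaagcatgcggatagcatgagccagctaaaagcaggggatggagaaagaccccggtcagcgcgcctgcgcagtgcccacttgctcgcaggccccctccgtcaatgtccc
Gstm5, chr3:107895604-107895853: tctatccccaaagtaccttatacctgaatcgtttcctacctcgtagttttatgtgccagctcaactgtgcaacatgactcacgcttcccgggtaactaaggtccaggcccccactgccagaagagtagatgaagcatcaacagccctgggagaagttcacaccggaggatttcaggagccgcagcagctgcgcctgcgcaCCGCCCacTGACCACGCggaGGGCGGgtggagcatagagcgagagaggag
Gstm7, chr3:107931818-107932067: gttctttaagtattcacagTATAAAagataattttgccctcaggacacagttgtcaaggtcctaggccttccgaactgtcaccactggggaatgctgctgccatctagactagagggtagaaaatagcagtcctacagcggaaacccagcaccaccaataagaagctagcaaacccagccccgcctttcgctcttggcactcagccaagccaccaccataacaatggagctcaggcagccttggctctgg
Gstm1, chr3:108017974-108018223: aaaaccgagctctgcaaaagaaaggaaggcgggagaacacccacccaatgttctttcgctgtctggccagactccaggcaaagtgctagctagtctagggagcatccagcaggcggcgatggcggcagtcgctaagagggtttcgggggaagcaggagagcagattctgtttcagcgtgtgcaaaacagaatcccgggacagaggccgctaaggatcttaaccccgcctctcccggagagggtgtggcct
Gstm4, chr3:108044860-108045109: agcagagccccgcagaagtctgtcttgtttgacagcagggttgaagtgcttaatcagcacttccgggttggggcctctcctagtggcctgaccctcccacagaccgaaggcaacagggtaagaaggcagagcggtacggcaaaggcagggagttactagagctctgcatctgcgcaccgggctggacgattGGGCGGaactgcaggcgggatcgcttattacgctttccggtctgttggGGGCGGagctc

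Among the 8 windows, the GC box had 2 matches at Gstm5, 2 at Gstm4 and 1 at Gstm3. The TATA box matched once, at Gstm7, near the end of the window farthest from the gene's start. The antioxidant response element core matched once, at Gstm5. Matches of different motifs did not overlap. Across 32851 windows of this length in RefSeq, 32.7% held the GC box, 12.4% the TATA box and 10.2% the antioxidant response element core. CpG dinucleotides numbered 14 at Gstm4, 13 at Gstm1, 13 at Gstm5 and 9 at 4933431E20Rik, against a median of 6 over all windows. Gstm7, Gstm6 and Gstm3 had 4 each, and Gstm2 had 3. A motif match is a description of these letters, and binding was not measured.

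Genes of the family arose by duplication, so the start of the coding sequence is shown where a pattern search found it. The first 16 coding bases, from the ATG, were located in the RefSeq windows by a start pattern that fixed most of these bases. The search found 4 members, and it could miss a start that departs from the pattern or lies beyond the window. Capitals mark bases identical in all 4.
Gstm7, chr3:107931639-107931654: ATGCCcaTGACaCTgG
Gstm6, chr3:107943618-107943633: ATGCCcgTGACtCTgG
Gstm3, chr3:107969125-107969140: ATGCCtaTGACaCTgG
Gstm2, chr3:107986378-107986393: ATGCCtaTGACaCTaG

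Of these 16 bases, 12 were identical in all 4 genes, and pairs differed at 1 to 4 positions. The search pattern fixed most of these bases in advance, so this identity does not measure how alike the genes are. Gstm1, Gstm4 and Gstm5 and the rest of the coding sequences were not compared. How the authors placed reads that match several paralogs is not stated in the labels or headers. The values of single Gstm genes are therefore uncertain to the extent that reads of related copies were shared, lost or misplaced.

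Library 1 held 4768237 allele-assigned reads and library 2 held 1291903, a 3.69-fold difference. The Spretus allele supplied 47.86% of the autosomal reads in library 1 and 47.95% in library 2, and the median autosomal gene with at least 10 reads in each library stood at 48.1%. Xist, the mutated gene, counted 2158 Spretus against 31 C57 reads in library 1, and 795 against 9 in library 2, with few reads from the allele taken as mutated. The pan-neuronal markers Rbfox3, Snap25, Syt1 and Map2 summed to 1987 FPKM in library 1 and 452 in library 2. The 8 astrocyte markers summed to 1246 and 203, and the 5 ependymal and choroid plexus markers to 3.09 and 1.25. Of these 5, 0 reached 1 FPKM in both libraries, a cutoff that is stricter in library 2, where FPKM values were generally lower. The labels do not tell whether each library had its own tissue pool. The spread behind each p-value of the allelic fits is that of 2 libraries, shared in part across genes, and could be technical alone. The test between the libraries below covers read sampling only.

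Gstm1 and Gstm5 supplied most of the mu class RNA. Levels are given as FPKM, deposited as 1 value per gene for both alleles together. By its name FPKM is scaled for transcript length and library size. These values were nonetheless higher in library 1 by a median of 5.62 times, so they are not comparable between the libraries as printed. Gstm1 stood at 139.6 FPKM in library 1 and 25.9 in library 2, above 98.2% and 98.1% of the autosomal genes listed above 0. Gstm5 followed with 87.0 and 16.9 FPKM. Together these genes made up 87.8% of the summed FPKM of Gstm1 to Gstm7 in library 1 and 89.7% in library 2.

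The other members formed a middle and a low group. Gstm7 had 21.0 FPKM in library 1 and 2.42 in library 2, 4933431E20Rik had 13.9 and 3.15, and Gstm4 had 7.31 and 1.26. Gstm7 and 4933431E20Rik changed places between the libraries, so their order is not resolved. Gstm3 stood at 1.42 and 0.531 FPKM, Gstm2 at 1.35 and 0.326, and Gstm6 at 0.533 and 0.362. The order of Gstm2 and Gstm6 also differed between the libraries. Gstm1 and Gstm5 held the first and second place and Gstm4 the fifth in both.

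**Figure D1:**
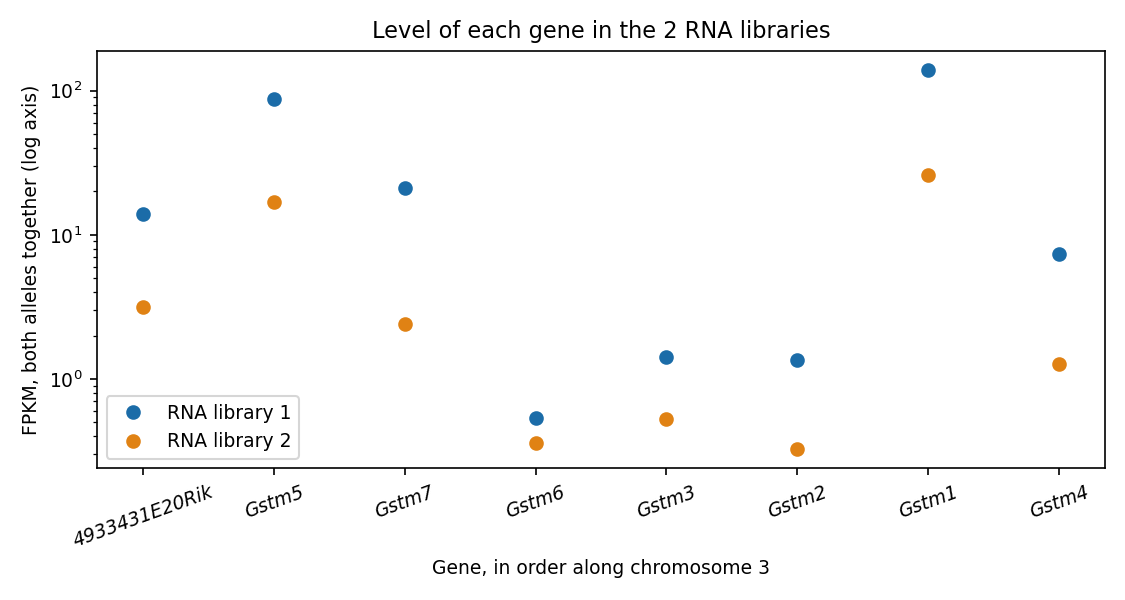
FPKM of the 8 genes (vertical axis, log scale) in the order of their loci on chromosome 3 (horizontal axis), with 1 point per RNA library. Gstm1 (139.6 and 25.9 FPKM) and Gstm5 (87.0 and 16.9) stand above the other 6 genes in each library.

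FPKM values were generally higher in library 1, by a median of 5.62 times over 8970 genes of at least 1 FPKM in each library. With this factor divided out, the library 1 over library 2 ratio was 0.958 for Gstm1, 0.917 for Gstm5, 1.03 for Gstm4, 0.787 for 4933431E20Rik and 1.54 for Gstm7. The low genes Gstm2, Gstm3 and Gstm6 were at 0.738, 0.476 and 0.261. With a pseudocount of 1 FPKM the log2 of this ratio was -1.66 for Gstm2 (-0.47 with 0.01), -1.83 for Gstm3 (-1.09) and -0.61 for Gstm4 (0.03). The pseudocount was added before the factor of 5.62 was divided out. By arithmetic alone it therefore lowers these ratios, most at low FPKM, and the shift is no difference in expression. On the same scale the summed astrocyte markers were at 1.09, the neuronal markers at 0.782, the oligodendrocyte markers at 1.77 and the blood markers at 2.26. Microglial markers were at 1.165, endothelial markers at 1.10 and mural and meningeal markers at 0.817. Ependymal and choroid plexus markers (0.438) and germ cell markers (0.472) had low FPKM sums in both libraries. Their part in the member values was not tested. In bulk tissue, fewer cells of a type and less RNA per cell cannot be told apart. With 1 value per library these ratios carry no test.

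Along the cluster the allelic share changed from gene to gene, from mostly C57 at 4933431E20Rik to mostly Spretus at Gstm4. Of the 8 members, 5 reached 10 allele-assigned reads in both libraries (4933431E20Rik, Gstm5, Gstm7, Gstm1 and Gstm4). All 5 lay on the same side of the autosomal median in both libraries. The choice of members used these shares, so this is a description and no support from replication. Intervals are exact Clopper-Pearson 95% intervals, and since reads carry no molecular identifiers they cover counting error only.

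4933431E20Rik, annotated in RefSeq as a long noncoding RNA (chr3:107888850-107896213), was read mainly from C57. Library 1 gave it 90 Spretus against 519 C57 reads, a Spretus share of 14.8% (interval 12.1 to 17.9%). Library 2 gave 26 Spretus and 155 C57 reads, 14.4% (9.60 to 20.3%). The mean share was 14.6% ± 0.293 (SD, n = 2), and 82 of 11584 autosomal genes tested had a lower one. The libraries were close together.

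Gstm5 (chr3:107895821-107898686), the mu class enzyme gene that overlaps it on the other strand, drew on both alleles. Library 1 held 69 Spretus and 89 C57 reads, 43.7% Spretus (35.8 to 51.8%), and library 2 held 18 and 28, 39.1% (25.1 to 54.6%). Both libraries lay below the autosomal median, but both intervals included it. The share of Gstm5 was 26.8 percentage points above that of 4933431E20Rik on average, 28.9 points in library 1 and 24.8 in library 2. 4933431E20Rik had 609 and 181 allele-assigned reads against 158 and 46 for Gstm5, although its FPKM was lower. Allele-assigned reads depend on transcript length and on the number of differing bases between the strains, which were not analysed here. The library kit marks strand, but whether counting used it is not stated in the labels or headers. Reads of the shared 393 bp therefore cannot be assigned to 1 of the genes with certainty.

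Gstm7 (chr3:107926334-107931817), the next gene along the chromosome, had more Spretus than C57 reads. Library 1 gave 109 Spretus and 56 C57 reads, 66.1% Spretus (58.3 to 73.2%), and library 2 gave 42 and 11, 79.2% (65.9 to 89.2%). Its mean share of 72.7% ± 9.32 (SD, n = 2) was exceeded by 141 of 11584 autosomal genes. The spread between its libraries was the widest of the 5 genes, and both lay above the autosomal median.

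Gstm1 (chr3:108012255-108017973), the most abundant member, leaned toward Spretus by less. Reads were 430 Spretus against 320 C57 in library 1, 57.3% Spretus (53.7 to 60.9%), and 187 and 120 in library 2, 60.9% (55.2 to 66.4%). The mean was 59.1% ± 2.53 (SD, n = 2), and 732 of 11584 autosomal genes lay higher. Both libraries were above the autosomal median.

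Gstm4 (chr3:108040408-108044894), at the end of the cluster, was read mainly from Spretus. Library 1 held 132 Spretus and 21 C57 reads, 86.3% Spretus (79.8 to 91.3%), and library 2 held 27 and 2, 93.1% (77.2 to 99.2%). Its mean share of 89.7% ± 4.83 (SD, n = 2) was exceeded by 56 of 11584 autosomal genes. The C57 reads of library 2 are too few to give a ratio with any precision.

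**Figure D2:**
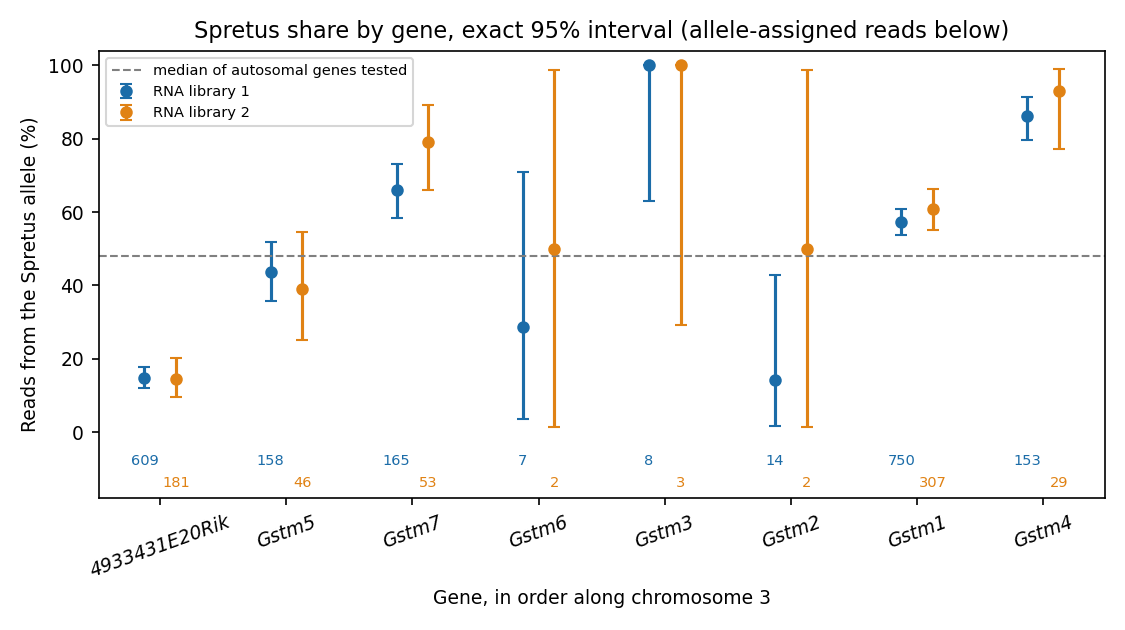
Share of allele-assigned reads from the Spretus allele in percent (vertical axis) for the 8 genes in locus order (horizontal axis), 1 point per RNA library with its exact 95% interval and the number of reads below. Shares run from 14.8% and 14.4% at 4933431E20Rik to 86.3% and 93.1% at Gstm4, and the intervals of Gstm6, Gstm3 and Gstm2 are wide.

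Gstm6, Gstm3 and Gstm2, which stand together in the middle of the cluster, had too few reads for a comparison between the alleles. Gstm3 (chr3:107963696-107969283) counted 8 Spretus against 0 C57 reads in library 1, and 3 against 0 in library 2. With the limit of a count of 0 set at 3 counts, these 11 reads allow a C57 share of up to 27.3%. Gstm2 (chr3:107981702-107986453) counted 2 Spretus against 12 C57 reads in library 1, and 1 of each in library 2. Its exact interval in library 1 ran from 1.78 to 42.8%. Gstm6 (chr3:107938847-107943749) counted 2 against 5 in library 1, and 1 of each in library 2. Summed over the libraries, Gstm2 was at 18.8% (4.05 to 45.6%) and Gstm6 at 33.3% (7.49 to 70.1%).

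Shares also differed between the neighbours with more reads. Gstm7 stood 31.3 points above Gstm5 (22.4 in library 1 and 40.1 in library 2), and Gstm4 stood 30.6 points above Gstm1 (28.9 and 32.2). Gstm1 lay below Gstm7 by less, at -13.5 points on average (-8.73 points in library 1 and -18.3 in library 2, Gstm1 minus Gstm7), with the 3 low genes between them. Across 8734 pairs of adjacent autosomal genes with at least 10 reads in each library and at most 100 kb apart, the median difference was 6.25 points. Differences at least as large as that of 4933431E20Rik and Gstm5 were found in 4.32% of these pairs, as that of Gstm5 and Gstm7 in 2.79%, as that of Gstm1 and Gstm4 in 3.0% and as that of Gstm7 and Gstm1 in 19.8%. Of the same pairs, 3905 (44.7%) lay on opposite sides of an equal share. These shares of pairs are a description, because the cluster was chosen for its opposite directions.

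Summed over Gstm1 to Gstm7, 752 reads were Spretus and 503 C57 in library 1, 59.9% Spretus (57.1 to 62.6%). Library 2 gave 279 and 163, 63.1% (58.4 to 67.6%). Without Gstm1 the shares were 63.8% and 68.1%. Adding 4933431E20Rik brought the sums to 842 Spretus and 1022 C57 reads in library 1, 45.2%, and to 305 and 318 in library 2, 49.0%. The sum over all 8 genes thus lay nearer to an equal share than the sum over Gstm1 to Gstm7 did. These sums weight each gene by its allele-assigned reads and not by its FPKM. In library 1 Gstm5 gave 158 of the 1255 reads of Gstm1 to Gstm7, but 87.0 of their 258.2 FPKM. 4933431E20Rik had 609 reads there at 13.9 FPKM.

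**Figure D3:**
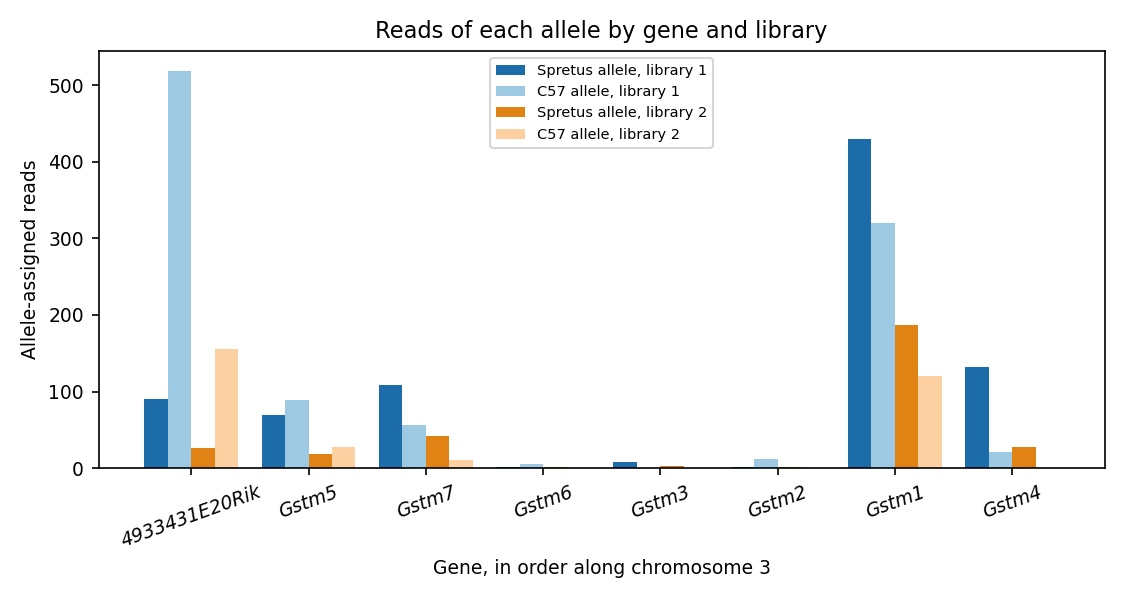
Allele-assigned reads (vertical axis) of the Spretus and the C57 allele in RNA libraries 1 and 2 for the 8 genes in locus order (horizontal axis). C57 bars stand above Spretus bars at 4933431E20Rik (90 Spretus and 519 C57 reads in library 1), and Spretus bars stand above C57 bars at Gstm7, Gstm1 and Gstm4.

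Log2 ratios of Spretus over C57 came from edgeR's quasi-likelihood fit across 11981 genes with at least 10 reads in each library. They were -2.45 (SE 0.19) for 4933431E20Rik, -0.33 (SE 0.26) for Gstm5, 1.41 (SE 0.29) for Gstm7, 0.68 (SE 0.28) for Gstm1 and 2.90 (SE 0.34) for Gstm4. Each SE is the absolute log2 ratio divided by the square root of the test's F statistic. A second fit took the library as a block, since both alleles share it. Its SEs were 0.11 for 4933431E20Rik, 0.18 for Gstm5, 0.19 for Gstm7, 0.078 for Gstm1 and 0.24 for Gstm4. Its log2 ratios were -2.405, -0.30, 1.30, 0.62 and 2.91 in the same order. The choice of members used this contrast, so these ratios are a description and no call is given for a member. Gstm6, Gstm3 and Gstm2 lacked the reads for either fit.

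The rule did not use the difference between the libraries, which was tested on the reads. Fisher's exact test, two-sided, of Spretus and C57 reads between libraries 1 and 2 gave p = 0.087 for Gstm7, 0.303 for Gstm1, 0.541 for Gstm4, 0.615 for Gstm5 and 1 for 4933431E20Rik. After Benjamini-Hochberg adjustment over 11981 genes each of the 5 had an adjusted p of 1. No gene of the 11981 was called in this test (0% of genes), and 291 (2.43%) had an unadjusted p under 0.05. It compares these libraries only, and its p-values cover read sampling and no spread between libraries. The difference of the libraries' shares was -13.2 points for Gstm7 and between -6.83 and 4.54 points for the other 4 genes, library 1 minus library 2.

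Genes on either side of the cluster mostly drew on both alleles. Of 53 listed genes within 500 kb of the cluster that are not members, 17 had enough reads, and their median share was 48.3%. In edgeR's quasi-likelihood test at an adjusted p of 0.05, 0 were called toward Spretus and 1 toward C57, which is 5.88% of 17. Of 11584 autosomal genes 5.43% were called, 2.39% toward Spretus and 3.04% toward C57. That gene was Psrc1, which encodes a microtubule-associated protein of the mitotic spindle, 338.9 kb after the cluster. Reads numbered 17 Spretus against 68 C57 in library 1, and 4 against 14 in library 2. Its mean share was 21.1% ± 1.57 (SD, n = 2), with a log2 ratio of -1.80 (SE 0.33, adjusted p = 0.00347 in edgeR with Benjamini-Hochberg adjustment). DESeq2 called 0 of the 17, Psrc1 included, where 2.2% of autosomal genes were called (1.05% toward Spretus and 1.15% toward C57). At an unadjusted p under 0.05 in edgeR, 0 lay toward Spretus and 1 toward C57.

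The nearest measured genes outside the cluster were Csf1 before it, the gene of a macrophage growth factor, and Ampd2 after it, an AMP deaminase gene. Csf1, 128.4 kb away, counted 76 Spretus against 109 C57 reads in library 1, and 9 against 13 in library 2, for 41.0% ± 0.122 (SD, n = 2; edgeR adjusted p = 0.700 with Benjamini-Hochberg adjustment). Ampd2, 29.2 kb away, counted 238 against 231 in library 1, and 62 against 49 in library 2, for 53.3% ± 3.61 (SD, n = 2; edgeR adjusted p = 0.464 with Benjamini-Hochberg adjustment). With the library as a block, where 22.5% of autosomal genes were called (11.1% toward Spretus and 11.3% toward C57), edgeR called 1 flanking gene toward Spretus (5330417C22Rik) and 2 toward C57 (Psrc1 and Slc6a17).

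**Figure D4:**
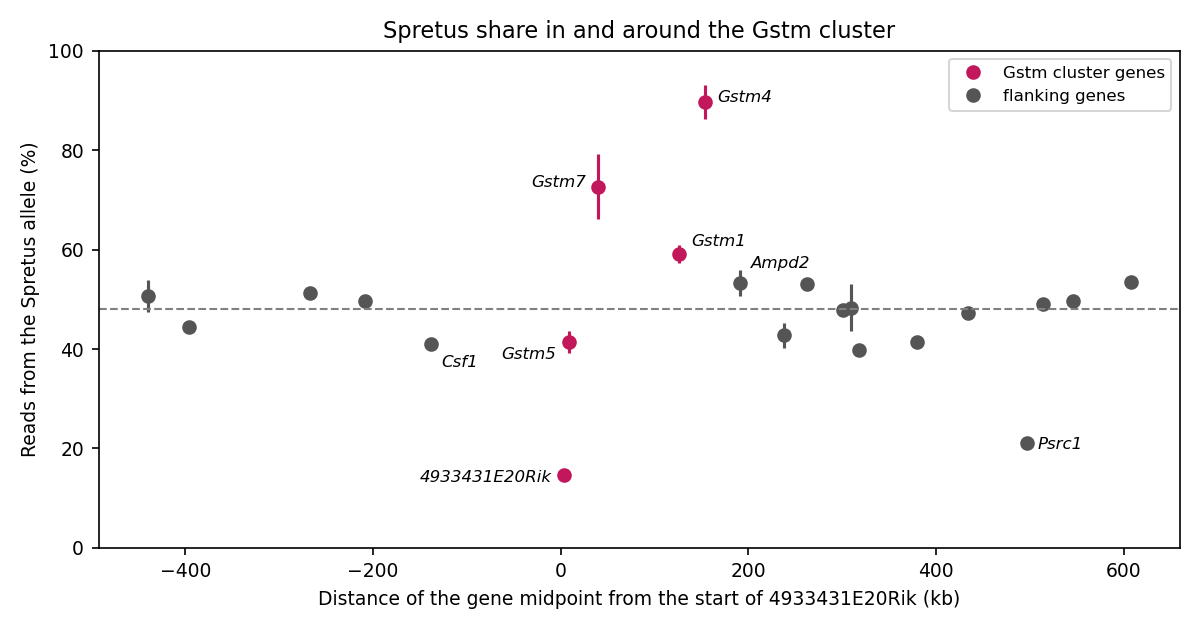
Spretus share in percent (vertical axis) of the 5 measured cluster genes and 17 flanking genes against the distance of the gene's midpoint from the start of 4933431E20Rik in kb (horizontal axis). Points are means of 2 libraries, lines join the libraries and the dashed line is the autosomal median of 48.1%. Among the flanking genes, Psrc1 (21.1%) stands apart from the others, which lie between 39.7% and 53.5%.

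No listed region of allelic methylation difference lay inside the cluster. The authors' deposited table held 1600 regions with a methylation level per allele as a fraction, 65 of them on chromosome 3. Before the cluster the nearest was a region of 37 bp at chr3:106389595-106389631, 1499 kb away, in Chil6, with levels in the authors' deposited table of 0.129 on Spretus and 0.965 on C57. After it the nearest was a region of 7 bp at chr3:108281912-108281918, 237 kb away and in no listed gene, with levels in the authors' deposited table of 0 on Spretus and 0.989 on C57. Levels outside the listed regions are not known. The starts of 4933431E20Rik, Gstm5, Gstm7, Gstm1 and Gstm4 shown above therefore have no methylation level here.

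Other genes of glutathione metabolism, none of them a member, were measured with the same fit. Of 67 listed genes 65 were in the tables and 43 had enough reads, with a median Spretus share of 48.7% against 48.1% for all autosomal genes. Of the 43, 3 were called toward Spretus and 2 toward C57, or 11.6% against 5.43% of autosomal genes. The list was drawn up with earlier results of these data known, so its counts are a description and no test of an excess. With the library as a block the counts were 10 and 3, or 30.2% against 22.5%. Where 1 total per library scaled both of its alleles, the counts were 3 and 2, against 4.77% of autosomal genes (1.44% toward Spretus and 3.32% toward C57). With no filter on low counts they were 6 and 3 of 61 genes, against 5.84% (2.71% and 3.12%).

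Among the other glutathione S-transferases 2 of 8 measured genes were called toward Spretus and 1 toward C57, against 3 and 1 with the library block. Of all autosomal genes 5.43% were called, and 22.5% with the library block. Gstp2, a pi class enzyme gene, counted 57 Spretus against 0 C57 reads in library 1, and 21 against 0 in library 2 (edgeR adjusted p = 3.1e-05 with Benjamini-Hochberg adjustment). A count of 0 in its 78 reads allows a C57 share of up to 3.85%. It stands beside the closely related Gstp1, so its reads are uncertain in the same way as those of the mu genes. Gstp1 had the highest FPKM of this group (43.1 and 7.61), with 116 Spretus against 79 C57 reads in library 1, and 47 against 22 in library 2 (edgeR adjusted p = 0.064, and 1.63e-04 with the library block, each with Benjamini-Hochberg adjustment).

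Gstk1, the kappa class enzyme gene, counted 109 Spretus against 33 C57 reads in library 1, and 23 against 7 in library 2, a log2 ratio of 1.83 (SE 0.29, edgeR adjusted p = 0.00107 with Benjamini-Hochberg adjustment). Gsta4, an alpha class gene whose enzyme acts on lipid peroxidation products, lay toward C57, with 22 Spretus against 105 C57 reads in library 1, and 9 against 25 in library 2. Its log2 ratio was -1.89 (SE 0.32, edgeR adjusted p = 0.00179 with Benjamini-Hochberg adjustment).

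In the synthesis and transport group 0 of 9 genes and in the breakdown group 0 of 7 were called. DESeq2 also called 0 in each. At an unadjusted p under 0.05 in edgeR, 1 gene of the first group lay toward Spretus and 0 of the second did in either direction. The block, with 22.5% of autosomal genes called, gave 1 toward Spretus (Abcc5) and 1 toward C57 (Slc7a11) in the first and 0 in the second. Their most abundant genes were the transporter gene Abcc5 (78.3 and 12.3 FPKM, 55.5% ± 0.798 Spretus, SD, n = 2) and Ggt7, of the gamma-glutamyltransferase family (56.2 and 7.65 FPKM, 45.7% ± 5.07).

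In the reduction and peroxidase group 1 of 10 genes was called, the glutaredoxin gene Glrx2, toward C57. With the library block, which called 22.5% of autosomal genes, 4 were called toward Spretus (Gsr, Gpx3, Glrx and Glrx3) and 1 toward C57. Glrx2 reads numbered 161 Spretus against 336 C57 in library 1, and 44 against 87 in library 2 (log2 ratio -0.91, SE 0.16, edgeR adjusted p = 0.00312 with Benjamini-Hochberg adjustment), and DESeq2 did not call it. Gpx4, the peroxidase of lipid hydroperoxides, was the most abundant of this group with 459.6 and 52.0 FPKM, with 54 Spretus against 51 C57 reads in library 1, and 8 against 19 in library 2. Among Nrf2 regulators and targets 1 of 9 was called, the quinone reductase gene Nqo1, toward Spretus, with 75 Spretus against 17 C57 reads in library 1, and 16 against 1 in library 2 (log2 ratio 2.46, SE 0.39, edgeR adjusted p = 0.00107 with Benjamini-Hochberg adjustment). With the library block Txn1 was also called toward Spretus, so 2 of 9, or 22.2%, near the 22.5% of all autosomal genes. Nfe2l1, the most abundant gene of that group (110.9 and 18.5 FPKM), stood at 48.1% ± 3.34 Spretus (SD, n = 2).

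Genes most like the extremes of the cluster were sought over 4 values, the log2 of CPM plus 1 (CPM being reads scaled to the total of that allele and library) of each allele in each library, by Euclidean distance among tested autosomal genes. Since the distance was taken over allele reads, a like allelic share in the genes found follows from the search. Nearest to Gstm4 were F5, the gene of coagulation factor V (distance 0.904), the imprinted gene Nnat (1.02) and Pcdhb6 (1.15). F5 counted 134 Spretus against 14 C57 reads in library 1, and 34 against 1 in library 2, and Nnat 107 against 11, and 34 against 3. Pcdhb6 stood at 74.05% Spretus in library 1 and 84.62% in library 2. Nearest to 4933431E20Rik were Nvl (1.01), Mrps17 (1.22) and Ubxn2a (1.25). Nvl counted 122 Spretus against 415 C57 reads in library 1, and 26 against 85 in library 2. Mrps17 stood at 26.5% Spretus in library 1 and 30.37% in library 2, and Ubxn2a at 26.55% and 22.64%.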

How the data were processed

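RNA-seq was analysed in 2 libraries of 1 genotype, and MethylC-seq as 1 list of regions. The labels' protocols describe rRNA removal and a stranded library kit. Build mm10 and, without their roles, HTSeq 0.6.0, TopHat2 2.0.9, bedtools 2.2.4 and Cufflinks 2.1.1 come from the submitters' processing notes. For allele assignment, reads matching several genes, the annotation and use of strand, the method is not given in the sources used here. Per the file headers, the authors deposited raw counts per allele and gene, and 1 FPKM value per gene. For each region in their list they deposited methylation as a fraction, 1 value per allele, whose coverage is unknown and whose 13 regions without levels were left out.

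The 46320 gene identifiers include 49 that stand at several loci, used once. Gene starts count from 0 in the tables, since adding 1 matched RefSeq for 38.7% of 32244 genes against 2.31% as listed, and are printed counted from 1. Allelic ratios (Spretus over C57) came from the quasi-likelihood test of edgeR 4.0.16 (R 4.3.3), with TMM scaling, allele as the only term and genes of at least 10 reads in each library. P-values were Benjamini-Hochberg adjusted over all genes with a threshold of 0.05. DESeq2 1.42.0, other scalings, no filter and the library as a block were alternatives. The fits were tested on simulated data with independent allele columns. That setting leaves out the pairing of alleles in a library, so it cannot decide between the fits with and without the library block. Alleles of a library share its RNA, so the library pairs them by design, and over 7565 autosomal genes their deviations had a correlation of 0.605. Total reads per gene differed between the libraries beyond sampling noise (chi-square 4.59 times its degrees of freedom), and the libraries were kept as separate replicates. That excess can be technical and concerns totals. It shows no spread of the allelic share, for which Fisher's test between the libraries called 0 of 11981 genes. Tests between libraries used scipy 1.17.1.

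The members and gene lists were chosen with earlier results of these data known. Named genes were all members, list and flanking genes called, the most abundant gene of each list group, the nearest genes and regions on each side, and 3 genes nearest to the members of highest and lowest share. Slc6a17, 5330417C22Rik, Slc7a11, Gsr, Gpx3, Glrx, Glrx3 and Txn1 were named after their values were seen.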

Additional observations from a re-analysis of the deposited data

How the results depend on the processing

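Counts of calls over all genes depended on the fit. As reported, 278 of 11981 genes were called toward Spretus and 746 toward C57. Of these, 277 and 352 were autosomal, so most of the excess toward C57 lay outside the autosomes. With the library as a replicate block the counts over all genes were 1292 and 1707 (1290 and 1313 autosomal). With no filter on low counts they were 602 and 1206 (600 and 690 autosomal). DESeq2 called 123 toward Spretus, and 168 were called where 1 total per library scaled both of its alleles. That scaling moved the median autosomal log2 ratio to -0.11, against 0.02 as reported, and the autosomal calls to 167 toward Spretus and 385 toward C57, against 277 and 352. Under it 4933431E20Rik had a log2 ratio of -2.56, Gstm5 -0.46, Gstm7 1.30, Gstm1 0.55 and Gstm4 2.76.

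In the glutathione list, calls toward Spretus were 10 with the replicate block and 6 with no filter, against 3 as reported, and DESeq2 called 1 toward C57, against 2. Among the flanking genes the replicate block called 1 toward Spretus and 2 toward C57, DESeq2 called 0 toward C57 and a window of 250 kb held 0, against 0 and 1 as reported. Listed methylation regions numbered 0 within 100 kb, 2 within 1 Mb and 0 with a level difference of at least 0.5 and a length of at least 200 bp, against 1 within 500 kb. The causes were not tested.

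Leaving out library 1 or library 2 leaves no residual degrees of freedom, so shares are given without a test. They ranged from 14.4 to 14.8% for 4933431E20Rik, 39.1 to 43.7% for Gstm5, 66.1 to 79.2% for Gstm7, 57.3 to 60.9% for Gstm1 and 86.3 to 93.1% for Gstm4. Depth limits Gstm6, Gstm3 and Gstm2, which had 9, 11 and 16 allele-assigned reads in all. The log2 ratio of library 1 over library 2, relative to all genes, was also taken with a pseudocount of 1 FPKM in place of 0.01. It was -1.66 for Gstm2 (-0.47 as reported), -1.83 for Gstm3 (-1.09), -0.61 for Gstm4 (0.03) and -2.32 for Gstm6 (-1.95). For 4933431E20Rik it was -0.64 (-0.35) and for Gstm7 0.20 (0.62). The pseudocount was added before the common factor between the libraries was divided out, which by arithmetic alone lowers these ratios.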
